A study of Mus musculus with 6 samples.

Results

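Vitamin A uptake and retinoid metabolism were followed in colonic tissue through 10 genes, *Isx*, *Scarb1*, *Bco1*, *Rbp2*, *Lrat*, *Retsat*, *Dhrs3*, *Aldh1a1*, *Aldh1a2* and *Aldh1a3*, of the 27202 genes in the expression table. The 10 genes were chosen by their symbols with the measured difference between the genotypes already in view, so their differences are given here as a description and carry no test. RNA came from the colons of 3 *Nedd4l fl/fl Villin Cre* mice (cKO) and 3 *Nedd4l fl/fl* littermates (WT), 8 to 10 weeks old on a C57BL/6J background. Every mouse of both genotypes carried floxed *Nedd4l* alleles and drank 2% dextran sulfate sodium (DSS), which damages the lining of the colon and causes colitis, up to day 7. No untreated mice were analysed here. Cre under the Villin promoter acts in intestinal epithelial cells (IECs), so *Nedd4l*, which encodes an E3 ubiquitin ligase, is kept in every other cell type of the colon. Whole tissue was sequenced, and fewer cells of a type and less RNA per cell cannot be told apart.

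Vitamin A enters the intestinal epithelium as carotenoids and as retinol. SCARB1 at the cell surface takes up carotenoids, BCO1 cleaves beta-carotene to retinaldehyde, and retinaldehyde is either reduced to retinol, which RBP2 binds and LRAT esterifies for storage or export, or oxidized by the ALDH1A enzymes to retinoic acid, the ligand of the RAR nuclear receptors. ISX is an intestine-specific homeodomain transcription factor that retinoic acid induces and that represses *Scarb1* and *Bco1*, which closes a feedback loop on vitamin A uptake.

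Among these genes, *Isx* and *Aldh1a3* had higher normalized counts in each cKO library than in any WT library, *Aldh1a1* had lower ones in each, and the other 7 genes overlapped between the genotypes. Over all 16246 genes tested, 10.5% lay wholly higher and 10.9% wholly lower in cKO mice. A normalized count is the number of reads on a gene divided by a size factor of its library. *Scarb1* and *Bco1*, the genes ISX is known to repress, stood at a log2 difference (cKO minus WT) of −0.19 (SE 0.11) and −0.04 (SE 0.30), against 1.48 (SE 0.19) for *Isx*.

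The stretches of DNA from 250 bases before to 50 bases after the annotated start are shown for *Isx*, because it is the regulator, for *Bco1*, because it is its known target in the loop, and for *Rbp2* and *Aldh1a1*, the genes of the set with the lowest log2 differences apart from the weakly expressed *Lrat*. They are RefSeq sequences on the plus strand of GRCm38.p6, written 5′ to 3′ with motif matches in capitals: *Isx* at chr8:74872924-74873223, *Bco1* at chr8:117095615-117095914, *Rbp2* at chr9:98490287-98490586 and *Aldh1a1* at chr19:20601718-20602017.
Isx: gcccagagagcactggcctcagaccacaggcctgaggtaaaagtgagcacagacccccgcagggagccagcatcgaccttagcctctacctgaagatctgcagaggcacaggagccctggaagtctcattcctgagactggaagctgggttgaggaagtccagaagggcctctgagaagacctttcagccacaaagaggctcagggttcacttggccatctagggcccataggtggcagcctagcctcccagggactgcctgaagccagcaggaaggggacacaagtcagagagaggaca
Bco1: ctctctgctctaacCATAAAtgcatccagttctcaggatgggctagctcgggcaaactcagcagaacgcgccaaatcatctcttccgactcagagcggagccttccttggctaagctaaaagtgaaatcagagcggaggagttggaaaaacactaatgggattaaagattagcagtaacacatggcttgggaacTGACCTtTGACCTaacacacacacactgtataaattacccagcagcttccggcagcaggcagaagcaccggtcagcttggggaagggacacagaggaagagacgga
Rbp2: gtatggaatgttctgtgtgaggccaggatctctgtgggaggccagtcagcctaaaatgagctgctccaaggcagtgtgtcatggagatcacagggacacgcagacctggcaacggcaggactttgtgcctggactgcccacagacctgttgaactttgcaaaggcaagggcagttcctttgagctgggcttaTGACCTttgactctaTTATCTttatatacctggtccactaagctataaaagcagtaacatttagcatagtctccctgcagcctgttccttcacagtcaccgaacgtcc
Aldh1a1: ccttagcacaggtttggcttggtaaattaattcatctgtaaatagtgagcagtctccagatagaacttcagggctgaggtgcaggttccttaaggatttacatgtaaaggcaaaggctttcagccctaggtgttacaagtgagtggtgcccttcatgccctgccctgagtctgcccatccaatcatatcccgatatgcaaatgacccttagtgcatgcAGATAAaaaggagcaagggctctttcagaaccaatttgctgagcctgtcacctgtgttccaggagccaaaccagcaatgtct
4 motifs of 6 letters were searched on both strands. They were the homeodomain core TAATTA, the CDX motif TTTATG, the nuclear receptor half-site AGGTCA and the GATA motif AGATAA, each with its reverse complement, and none overlaps another in the windows shown. Over all 32851 promoter windows of this length, 5.29% held TAATTA, 11.9% the CDX motif, 16.3% the half-site and 11.2% the GATA motif. The start used for *Rbp2* and the one used for the *Aldh1a1* window shown belong to transcripts that begin inside the genes as the table lists them. The *Bco1* window held the CDX motif 236 bases before the start and 2 half-sites, beginning 56 and 49 bases before it, which lie in the same direction with 1 base between them. In *Rbp2* a half-site began 58 bases and a GATA motif 43 bases before that start. *Aldh1a1* held a GATA motif 32 bases before the start in the window shown and none of the 4 motifs in a second window at chr19:20492333-20492632. The windows of *Isx*, *Lrat*, *Retsat*, *Dhrs3* and *Aldh1a2* held none of the 4. *Scarb1* and *Aldh1a3* have no window shown. Each match is a run of letters and no measurement of binding.

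The libraries held 14914367 to 16202235 counts in cKO and 15893599 to 17547270 in WT mice, in units of the smallest value of each library, which is 1 read if that value stands for 1. *Nedd4l* stood at 476, 942 and 566 in cKO replicates 1, 2 and 3 and at 1241, 1271 and 1266 in WT replicates 1, 2 and 3. The genotypes did not overlap (log2 difference −0.99, adjusted p = 0.225 from limma; a two-sided exact permutation test gave p = 0.10, its lower limit with 3 mice against 3). Leaving out any single library other than cKO replicate 2 gave *Nedd4l* an adjusted p from limma between 0.226 and 0.512. Without cKO replicate 2 the log2 difference of *Nedd4l* was −1.28 (adjusted p = 0.0131 from limma). The same library held the most *Nedd4l* of its genotype and had a mean correlation over the 16246 genes tested of 0.977 with the WT libraries and 0.966 with its own genotype. Markers of epithelium summed to between 178613 and 204233 in cKO and between 193365 and 216414 in WT libraries. Markers of small-intestinal enterocytes summed to between 57.5 and 177 in all. Of these, *Sis* and *Apoa4* lay between 0 and 2.88, *Lct* between 2.06 and 4.42 and *Alpi* between 10.3 and 40.9. *Fabp6* made up most of the highest sum, at 27.8, 61.9 and 163 in cKO and 67.2, 56.7 and 75.9 in WT replicates 1, 2 and 3. Of 16246 genes tested, limma called 0 higher and 0 lower at an adjusted p under 0.05, which is 0% each way, and 1122 higher (6.91%) and 1151 lower (7.08%) at an unadjusted p under 0.05. These p-values measure the spread between 3 mice of each genotype.

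All 10 genes passed the filter of a mean of at least 10, which is set over all 6 libraries together. limma called 0 of the 10 at the adjusted threshold (0% of all genes in each direction). At an unadjusted p under 0.05 there were 2 higher (*Isx* and *Aldh1a3*, against 6.91% of all genes) and 2 lower (*Aldh1a1* and *Rbp2*, against 7.08%). The genes were chosen on this contrast, so these counts are no result about them. Their median log2 difference was −0.23, with 3 of the log2 differences above 0 and 7 below, against a median of 0.0013 over all genes tested.

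**Figure D1:**
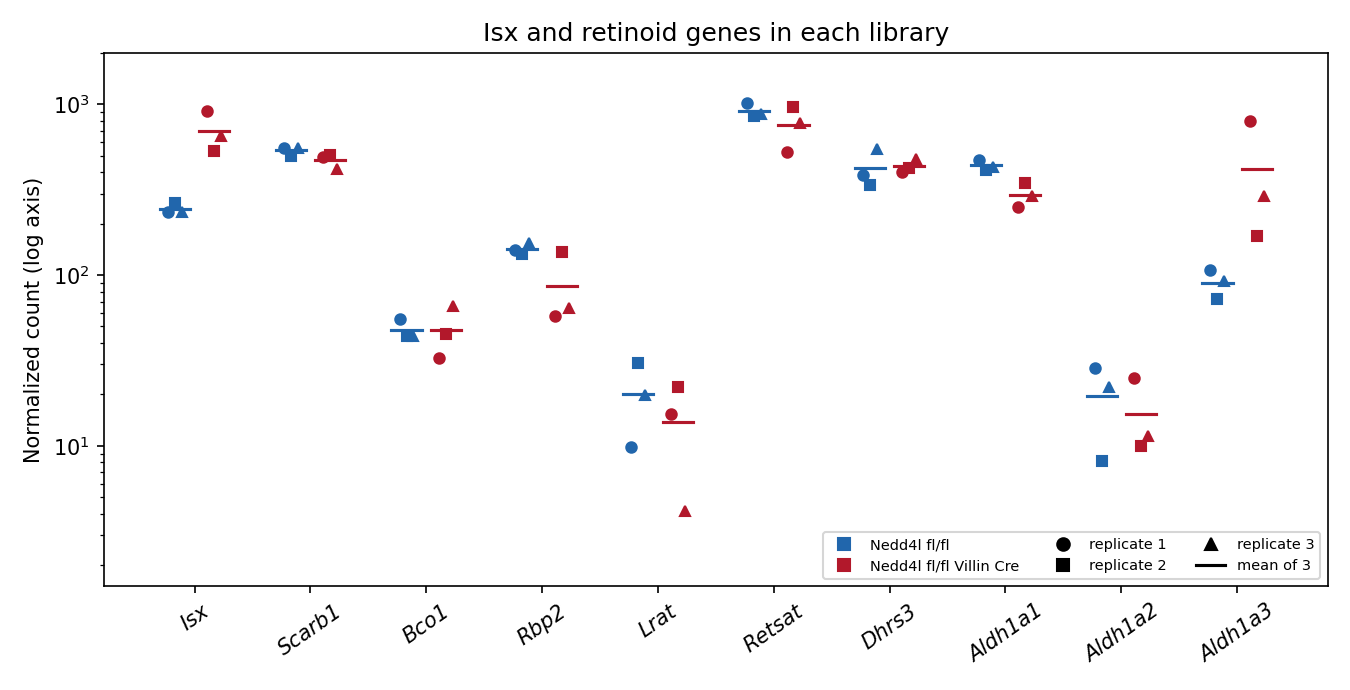
Normalized count (log axis) of the 10 genes in each of the 6 libraries, with WT in blue and cKO in red, circles, squares and triangles for replicates 1, 2 and 3 and a line at the mean of 3. *Isx* and *Aldh1a3* lie higher and *Aldh1a1* lower in every cKO library, and cKO replicate 1 has the highest *Isx* (915) and *Aldh1a3* (798).

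*Isx* (ENSMUSG00000031621) occupies 74873173 to 74893506 of chromosome 8 (GRCm38, plus strand), with up to 4 exons in its 2 coding transcripts and no other annotated gene over it. Its normalized count was 915, 531 and 657 in cKO replicates 1, 2 and 3 and 235, 264 and 235 in WT replicates 1, 2 and 3. The lowest cKO library thus held more *Isx* than the highest WT library, and the WT libraries lay close together. Means of 701 ± 196 (SD, n = 3) in cKO and 244 ± 16.6 (SD, n = 3) in WT mice are 2.87-fold apart. The log2 difference of 1.48 lay between 1.27 and 1.66 in the 13 alternatives tried. It was lowest without cKO replicate 1 and highest without cKO replicate 2. Changing the filter on low values, or adding the replicate number to the model (replicate block), cannot change a log2 difference. Those alternatives repeat the main value.

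The epithelium around *Isx* was compared through its own markers. Per 1000 summed counts of the epithelium markers *Epcam*, *Vil1*, *Cdh1*, *Krt8*, *Krt18*, *Krt19* and *Krt20*, *Isx* stood at 5.13, 2.60 and 3.38 in cKO replicates 1, 2 and 3 and at 1.10, 1.22 and 1.21 in WT replicates 1, 2 and 3. The genotypes stayed apart on this scale, with a log2 difference of 1.59. Position along the colon was followed through homeobox genes of its distal end, of which 1 of 3 tested was higher and 2 were lower on average, with sums of 3107, 5644 and 5353 in cKO and 5101, 4790 and 5518 in WT replicates 1, 2 and 3. *Hoxa13* lay lower in each cKO library, at a log2 difference of −0.24 (adjusted p = 0.344 from limma). *Hoxd13* stood at 17.3, 334 and 651 in cKO and at 213, 195 and 78.9 in WT replicates 1, 2 and 3, and *Hoxb13* at 2279, 4441 and 3937 against 3820, 3694 and 4513. cKO replicate 1, the library with the most *Isx*, had the lowest value of *Hoxd13* and *Hoxb13*. *Hoxa13* was instead lowest in cKO replicate 3, at 810, 869 and 762 in cKO and 1067, 896 and 926 in WT replicates 1, 2 and 3. The part of these genes in the result was not tested.

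*Scarb1*, on the minus strand of chromosome 5 from 125277087 to 125341094, encodes the scavenger receptor that takes up carotenoids and cholesterol. Its counts of 493, 507 and 419 in cKO overlapped those of 557, 501 and 556 in WT replicates 1, 2 and 3, through WT replicate 2. Means were 473 ± 47.5 and 538 ± 32.0 (SD, n = 3 each). The log2 difference was below 0 in 13 of 13 alternatives, from −0.32 with libraries weighted by their fit to the model to −0.10 without cKO replicate 3. The filter settings and the replicate block among them repeat the main value and are no separate check.

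*Bco1*, on the plus strand of chromosome 8 from 117095854 to 117133720, encodes the enzyme that cleaves beta-carotene at its centre. It had 32.6, 45.3 and 66.0 in cKO and 55.3, 44.1 and 43.9 in WT replicates 1, 2 and 3. The cKO libraries lay on both sides of the WT ones, with means of 48.0 ± 16.9 and 47.8 ± 6.52 (SD, n = 3 each). Its log2 difference turned from −0.04 to 0.20 without cKO replicate 1, to 0.06 without WT replicate 1 and to 0.34 with weighted libraries.

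Per kilobase of gene length, the ratio of *Isx* to *Bco1* was 39.8, 16.6 and 14.1 in cKO and 6.03, 8.48 and 7.57 in WT replicates 1, 2 and 3. For *Isx* to *Scarb1* the ratios were 8.81, 4.96 and 7.44 against 2.00, 2.49 and 2.00. Neither ratio overlapped between the genotypes. In both, the separation follows the *Isx* values, which alone did not overlap.

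*Rbp2*, on the plus strand of chromosome 9 from 98486115 to 98509781, encodes the retinol-binding protein of absorptive enterocytes. Counts were 57.5, 136 and 64.0 in cKO and 141, 133 and 155 in WT replicates 1, 2 and 3. cKO replicates 1 and 3 lay far below the WT libraries, and replicate 2 lay among them. Means were 85.8 ± 43.6 and 143 ± 10.9 (SD, n = 3 each), and the log2 difference of −0.84 (SE 0.32) was −1.22 without cKO replicate 2 and −0.61 without cKO replicate 1. The summed markers of colonocytes, the absorptive cells of the colon, were also lowest in cKO replicates 1 and 3. Their sum (*Car1*, *Car4*, *Slc26a3*, *Aqp8* and *Cdhr5*) was 28108, 57799 and 31854 in cKO and 61217, 55584 and 47610 in WT replicates 1, 2 and 3, with 5 of 5 genes lower on average and 0 passing the test. Not every marker followed the sum. *Car1* stood at 6379, 5130 and 2407 in cKO and 7647, 5463 and 3344 in WT replicates 1, 2 and 3, and *Cdhr5* was nearly level (log2 difference −0.07). Per 1000 of the colonocyte marker sum *Rbp2* stood at 2.05, 2.35 and 2.01 against 2.31, 2.40 and 3.25, so the genotypes overlapped, and the log2 difference was −0.30. Per 1000 epithelium marker counts it stood at 0.322, 0.666 and 0.329 against 0.663, 0.615 and 0.8004, also with overlap, and the log2 difference was −0.74.

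*Lrat*, on the minus strand of chromosome 3 from 82892579 to 82903973, encodes the enzyme that esterifies retinol. It was weakly expressed, at 15.3, 22.1 and 4.13 in cKO and 9.88, 30.6 and 20.0 in WT replicates 1, 2 and 3, or 4 to 34 smallest values per library. The groups overlapped widely. At this depth no difference was detectable, and the log2 difference of −0.63 (SE 0.65) was 0.0087 without cKO replicate 3.

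*Retsat*, on the plus strand of chromosome 6 from 72598475 to 72608425, encodes retinol saturase, which makes dihydroretinol. It stood at 525, 965 and 781 in cKO and 1025, 855 and 883 in WT replicates 1, 2 and 3. cKO replicates 1 and 3 lay below all WT libraries and replicate 2 within their range, and the log2 difference was −0.32 (SE 0.22). It was −0.08 without cKO replicate 1 and −0.52 without cKO replicate 2. A gene on the opposite strand, *Gm45053*, overlaps *Retsat* and reached 31.6 at most.

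*Dhrs3*, on the plus strand of chromosome 4 from 144892827 to 144928209, encodes a retinaldehyde reductase that is itself a known retinoic acid target. It had 403, 421 and 480 in cKO and 386, 337 and 548 in WT replicates 1, 2 and 3. The cKO values lay inside the WT range. Its log2 difference of 0.06 (SE 0.18) turned to −0.09 without WT replicate 2 and to −0.01 without cKO replicate 3.

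*Aldh1a1*, on the plus strand of chromosome 19 from 20492715 to 20643462 in the table (GENCODE M21 gives other ends), encodes a cytosolic retinaldehyde dehydrogenase. Counts were 252, 346 and 289 in cKO and 475, 415 and 430 in WT replicates 1, 2 and 3. Each cKO library lay below each WT library, with means of 296 ± 47.3 and 440 ± 31.3 (SD, n = 3 each), so that the WT mean was 1.49-fold higher. The log2 difference of −0.58 (SE 0.14) lay between −0.70 and −0.47 in the 13 alternatives. Per 1000 epithelium marker counts *Aldh1a1* stood at 1.41, 1.69 and 1.48 against 2.23, 1.92 and 2.23, and the genotypes stayed apart (log2 difference −0.47).

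*Aldh1a3*, on the minus strand of chromosome 7 from 66390890 to 66427517, encodes a second enzyme of the same activity. It stood at 798, 169 and 292 in cKO and at 108, 72.0 and 91.9 in WT replicates 1, 2 and 3. All cKO libraries lay above all WT libraries, but they differed widely among themselves, and replicate 1 held most of the excess. Means were 420 ± 333 and 90.5 ± 17.9 (SD, n = 3 each), a 4.64-fold ratio, with a log2 difference of 1.92 (SE 0.56) that was 1.31 without cKO replicate 1 and 2.42 without cKO replicate 2. The summed fibroblast markers were also higher. Of *Col1a1*, *Col1a2*, *Col3a1*, *Pdgfra*, *Dcn* and *Lum*, 6 of 6 were higher on average in cKO libraries. The 3 that did not overlap were *Col1a1*, *Col1a2* and *Col3a1* (10.5% of all genes tested lay wholly higher). None of the 6 passed limma's adjusted threshold. *Lum* was nearly level, at 246, 270 and 239 in cKO and 349, 146 and 237 in WT replicates 1, 2 and 3 (log2 difference 0.13). The sum of the 6 was 42446, 20966 and 22452 against 18057, 10564 and 13330 in replicates 1, 2 and 3. Per 1000 of that sum *Aldh1a3* stood at 18.8, 8.07 and 13.0 in cKO and at 5.96, 6.81 and 6.89 in WT replicates, still without overlap, at a log2 difference of 0.94.

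*Aldh1a2*, on the plus strand of chromosome 9 from 71215789 to 71296243, encodes the third retinaldehyde dehydrogenase, known in the gut from dendritic and stromal cells. It stood at 24.9, 9.95 and 11.3 in cKO and 28.6, 8.10 and 22.0 in WT replicates 1, 2 and 3. The groups overlapped, the log2 difference was −0.27 (SE 0.55), and it was 0.07 without WT replicate 1 and −0.78 without WT replicate 2. Dendritic cell markers summed to between 631 and 809 in cKO and between 643 and 763 in WT libraries.

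**Figure D2:**
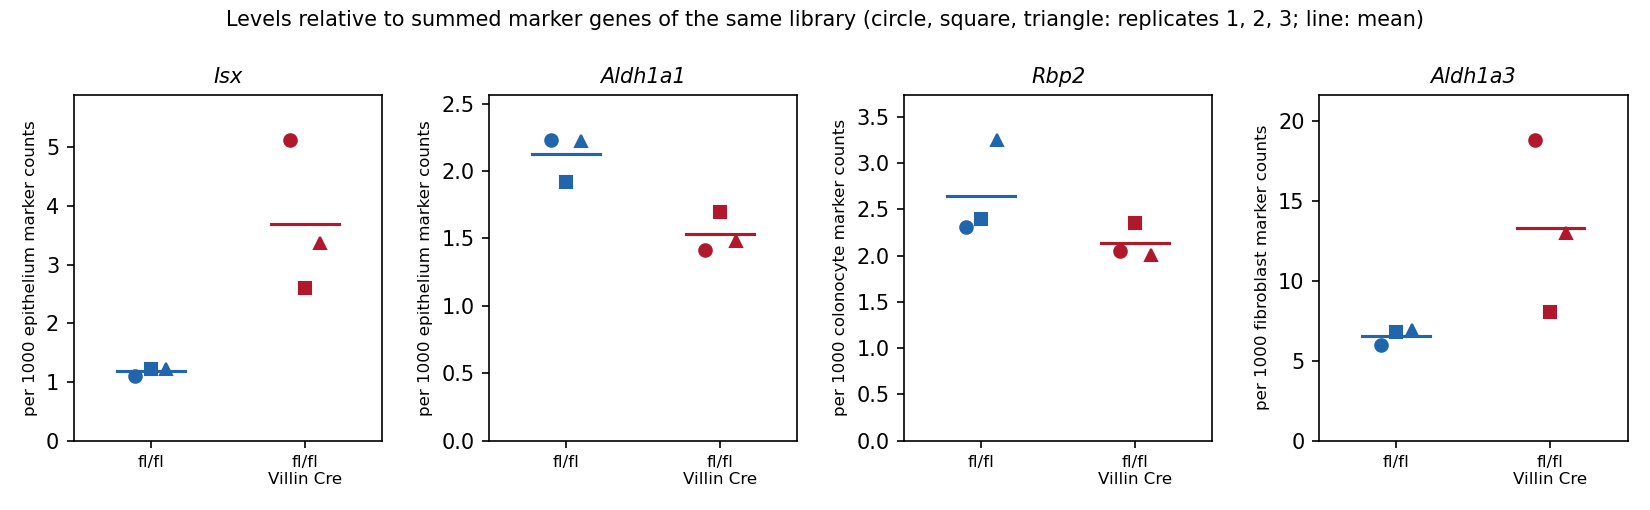
Level of *Isx* and *Aldh1a1* per 1000 summed epithelium marker counts, of *Rbp2* per 1000 colonocyte marker counts, and of *Aldh1a3* per 1000 fibroblast marker counts of the same library, with WT (fl/fl) in blue, cKO (fl/fl Villin Cre) in red and lines at the means of 3. *Isx*, *Aldh1a1* and *Aldh1a3* stay apart between the genotypes, and *Rbp2* overlaps.

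The make-up of the 3 retinaldehyde dehydrogenase genes differed more than their sum. Per kilobase of gene length, *Aldh1a3* made up 73.6%, 33.0% and 49.9% of the summed level in cKO replicates 1, 2 and 3 and 17.6%, 15.1% and 17.0% in WT replicates 1, 2 and 3. The shares did not overlap. With *Aldh1a3* wholly higher, *Aldh1a1* wholly lower and little *Aldh1a2*, that separation follows from the values given above and is no further result. *Aldh1a1* made up 21.8%, 63.1% and 46.2% against 72.8%, 81.4% and 74.7%, and *Aldh1a2* between 3.46% and 9.57% in all libraries. The summed level per kilobase was 235, 111 and 127 in cKO and 132, 103 and 117 in WT replicates, and these ranges overlapped. These are shares of transcript level, not of enzyme activity.

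**Figure D3:**
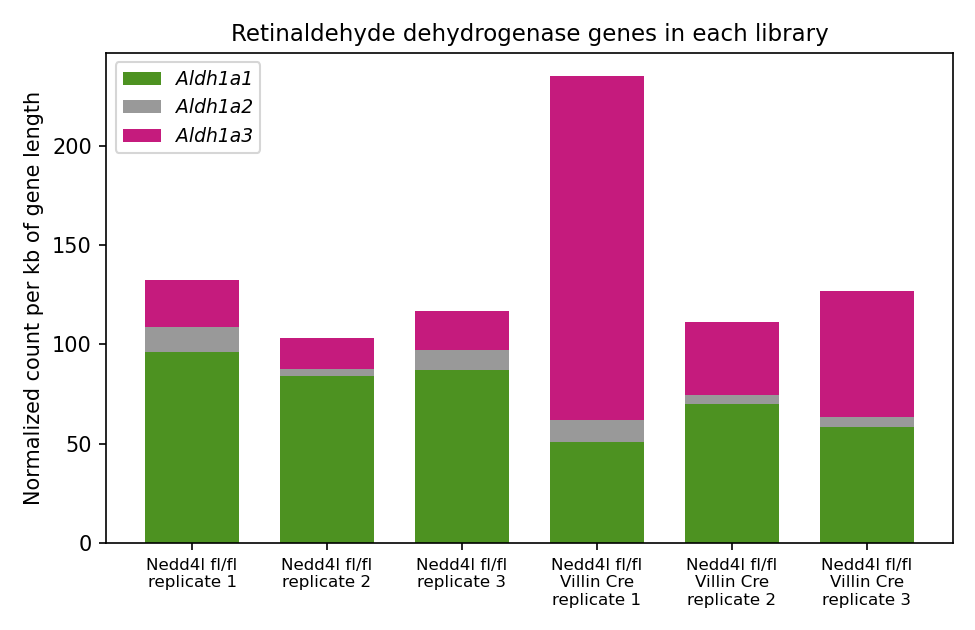
Normalized count per kb of gene length of *Aldh1a1*, *Aldh1a2* and *Aldh1a3*, stacked for each of the 6 libraries. The *Aldh1a3* part is 15.1% to 17.6% of the bar in WT mice and 33.0% to 73.6% in cKO mice, and cKO replicate 1 has the tallest bar (235).

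Ordered by level per kilobase, the WT means ran from *Retsat* (260) through *Rbp2* (149), *Dhrs3* (145), *Isx* (136), *Aldh1a1* (89.2), *Scarb1* (63.3), *Aldh1a3* (19.6), *Bco1* (18.8) and *Aldh1a2* (8.64) to *Lrat* (3.76). Neighbours whose libraries overlapped were *Rbp2* and *Dhrs3*, *Dhrs3* and *Isx*, *Aldh1a3* and *Bco1*, and *Aldh1a2* and *Lrat*. In cKO mice the order per kilobase began with *Isx* (391), which lay above *Retsat* (214) without overlap, and went on with *Dhrs3* (148), *Aldh1a3* (90.9), *Rbp2* (89.2), *Aldh1a1* (59.9), *Scarb1* (55.6), *Bco1* (18.9), *Aldh1a2* (6.80) and *Lrat* (2.59). From *Retsat* to *Scarb1* each of these neighbours overlapped. In this order *Isx* stood in the fourth place in WT and in the first in cKO mice, and *Aldh1a3* in the seventh and the fourth.

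Within the cKO libraries, *Nedd4l* was lowest in replicate 1 and highest in replicate 2. *Isx*, *Aldh1a2* and *Aldh1a3* had the opposite order, *Rbp2*, *Retsat* and *Aldh1a1* the same order, and the other 4 genes neither. Over all genes tested, 22.9% had the opposite and 23.5% the same order in these 3 libraries.

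**Figure D4:**
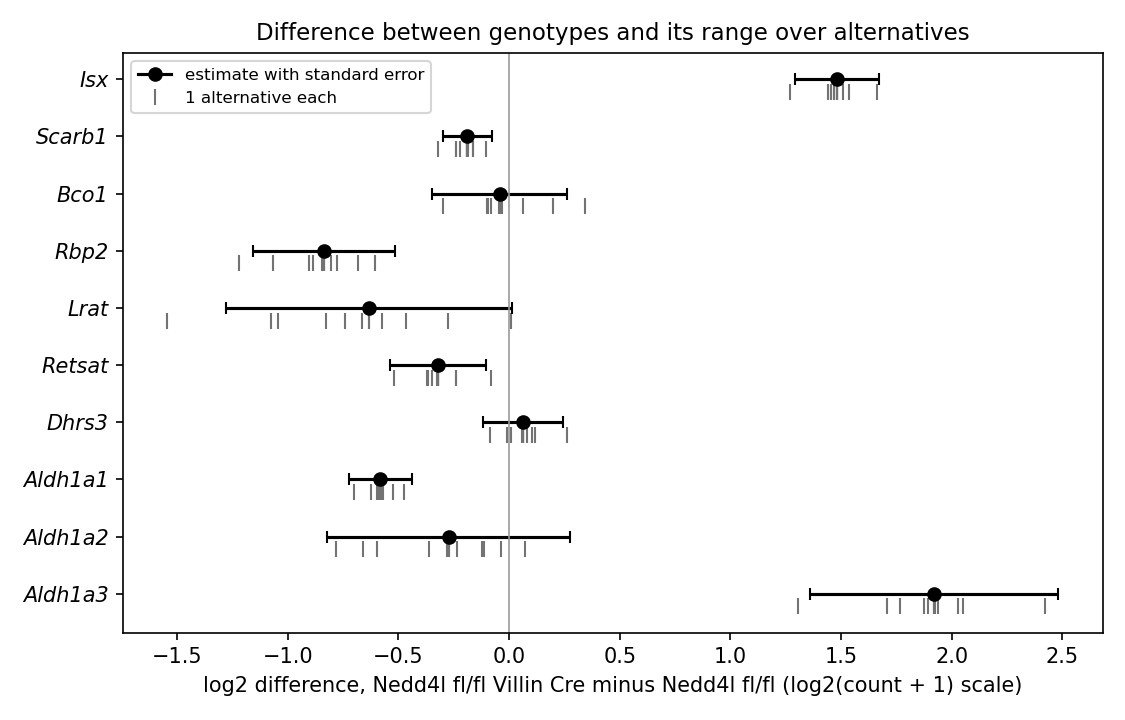
Log2 difference (cKO minus WT, log2(normalized count + 1) scale) of the 10 genes with its standard error (points and bars), and the value under each of up to 13 alternatives (grey ticks). *Isx* and *Aldh1a3* stay above 0 and *Scarb1*, *Rbp2*, *Retsat* and *Aldh1a1* below 0 in 13 of 13 alternatives, and *Bco1*, *Lrat*, *Dhrs3* and *Aldh1a2* cross 0. The ticks for the filter settings and the replicate block repeat the main estimate, which they cannot change.

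The rest of the pathway was taken as 63 further genes, written from general knowledge of vitamin A metabolism. Of these, 60 were in the table and 50 passed the filter, and *Rdh7*, *Sdr16c5* and *Adh4* were not analysed here. limma called 0 of the 50 higher and 0 lower at an adjusted p under 0.05. At an unadjusted p under 0.05 from limma, 1 was higher and 3 were lower (6.91% and 7.08% over all genes tested). Wholly above the WT libraries lay 5 and wholly below them 5 (10.5% and 10.9% over all genes tested). Of the 50 log2 differences 27 were above 0 and 23 below, with a median log2 difference of 0.023 beside 0.0013 over all genes tested. Below the filter lay *Gata4*, *Npc1l1*, *Crabp1*, *Crabp2*, *Awat2*, *Aldh8a1*, *Cyp26a1*, *Cyp26c1*, *Rarb* and *Rxrg*.

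Of 6 tested transcription factors of intestinal identity, 1 was higher and 5 were lower, with 0 past the test. The smallest p were those of *Gata6* (log2 difference −0.16, adjusted p = 0.414 from limma), which did not overlap between the genotypes, and *Cdx1* (−0.24, adjusted p = 0.427), whose libraries overlapped. GATA6 and CDX1 are transcription factors of the gut endoderm. *Cdx2*, the gene for the factor that sets intestinal fate, stood at 2257, 2378 and 1666 in cKO and 2141, 2258 and 2120 in WT replicates 1, 2 and 3, with overlap. For uptake, cleavage and export, 6 of 7 tested genes had a log2 difference above 0, *Cd36* among them at 0.02 although its mean count was lower in cKO mice, with *Mttp* (0.38, adjusted p = 0.536) and *Apob* (0.22, adjusted p = 0.701), which build the lipoproteins that carry retinyl esters, at the smallest p.

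Of 4 tested genes for retinoid-binding proteins, 2 were higher and 2 lower, with 0 past the test. *Fabp5*, whose product carries fatty acids and retinoic acid, stood at 396, 209 and 223 in cKO and 173, 194 and 192 in WT replicates 1, 2 and 3. The genotypes did not overlap, and the log2 difference of 0.50 (adjusted p = 0.391 from limma) was 0.21 without cKO replicate 1. *Ttr*, the transthyretin gene, stood at −0.54 (adjusted p = 0.523 from limma) with overlap, and at −0.13 without cKO replicate 1.

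The lowest log2 differences of the wider list were those of carboxylesterase genes, whose products hydrolyse retinyl and other esters. *Ces1f* stood at 144, 251 and 84.6 in cKO and 794, 490 and 558 in WT replicates 1, 2 and 3. *Ces1d* stood at 115, 294 and 92.8 against 545, 417 and 468. For both genes every cKO library lay below every WT library, with log2 differences of −2.04 (adjusted p = 0.202 from limma) and −1.69 (adjusted p = 0.248 from limma). *Ces1e* (−1.67) and *Ces1g* (−1.19) were also lower on average but overlapped. Without cKO replicate 2, limma called *Ces1d* (−2.19, adjusted p = 0.0131), *Ces1f* (−2.44, adjusted p = 0.0375) and *Ces1e* (−2.41, adjusted p = 0.0437), in a fit that called 52 genes lower over all genes tested against 0 with every library. Leaving out each of the other 5 libraries in turn called 0 of these genes, with an adjusted p from limma between 0.414 and 0.511 for *Ces1d* and between 0.335 and 0.492 for *Ces1f*. These genes are close paralogs, and as the handling of shared reads is not given in the sources used here, their separate values are uncertain. The other tested ester genes, *Dgat1*, *Lipe* and *Lpl*, were higher on average, *Dgat1* and *Lipe* without overlap.

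Genes of retinol oxidation (3 higher and 5 lower of 8 tested) and of retinaldehyde reduction (3 higher and 2 lower of 5) held none past the test. *Rdh10*, the main retinol dehydrogenase of the embryo, stood at 0.34 (adjusted p = 0.430 from limma) and *Dhrs9* at 0.61 (adjusted p = 0.540) on the log2 scale. *Rdh12* stood at 1.02 (adjusted p = 0.370) and *Dhrs4* at −0.27 (adjusted p = 0.396), and only *Dhrs4* did not overlap. *Aox1*, an aldehyde oxidase gene, was at 0.30 (adjusted p = 0.731), and *Cyp26b1*, a gene for a retinoic acid hydroxylase, at −0.23 (adjusted p = 0.895).

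Receptors for retinoic acid were divided, with 2 of 4 tested genes higher and 2 lower. *Rxra* stood at −0.18 (adjusted p = 0.397 from limma) without overlap, and *Rarg* at 0.27 (adjusted p = 0.484) with overlap. Of 7 genes listed as responding to retinoic acid in gut or immune cells, 6 were higher on average and 1 lower. *Tgm2* and *Itgb7* lay wholly higher, as did 10.5% of all genes tested. *Isx* and *Dhrs3*, both named above as genes that respond to retinoic acid, are outside this list, at log2 differences of 1.48 and 0.06. *Tgm2*, the gene for tissue transglutaminase, had 5709, 1179 and 2280 in cKO and 1128, 1127 and 1048 in WT replicates 1, 2 and 3. Its cKO replicate 2 lay just above the WT libraries and replicate 1 far above, with a log2 difference of 1.17 (adjusted p = 0.406 from limma) that was 0.57 without cKO replicate 1 and 1.71 without cKO replicate 2. *Rarres2*, the chemerin gene, stood at 0.59 (adjusted p = 0.365) with overlap. The cKO libraries followed 1 order in *Tgm2* and *Aldh1a3*, replicate 1 above 3 above 2, which is also that of the fibroblast marker sum. *Isx* had the same order, as did 22.9% of all genes tested. The part of the fibroblast marker sum in these values, beyond the ratio given for *Aldh1a3*, was not tested.

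**Figure D5:**
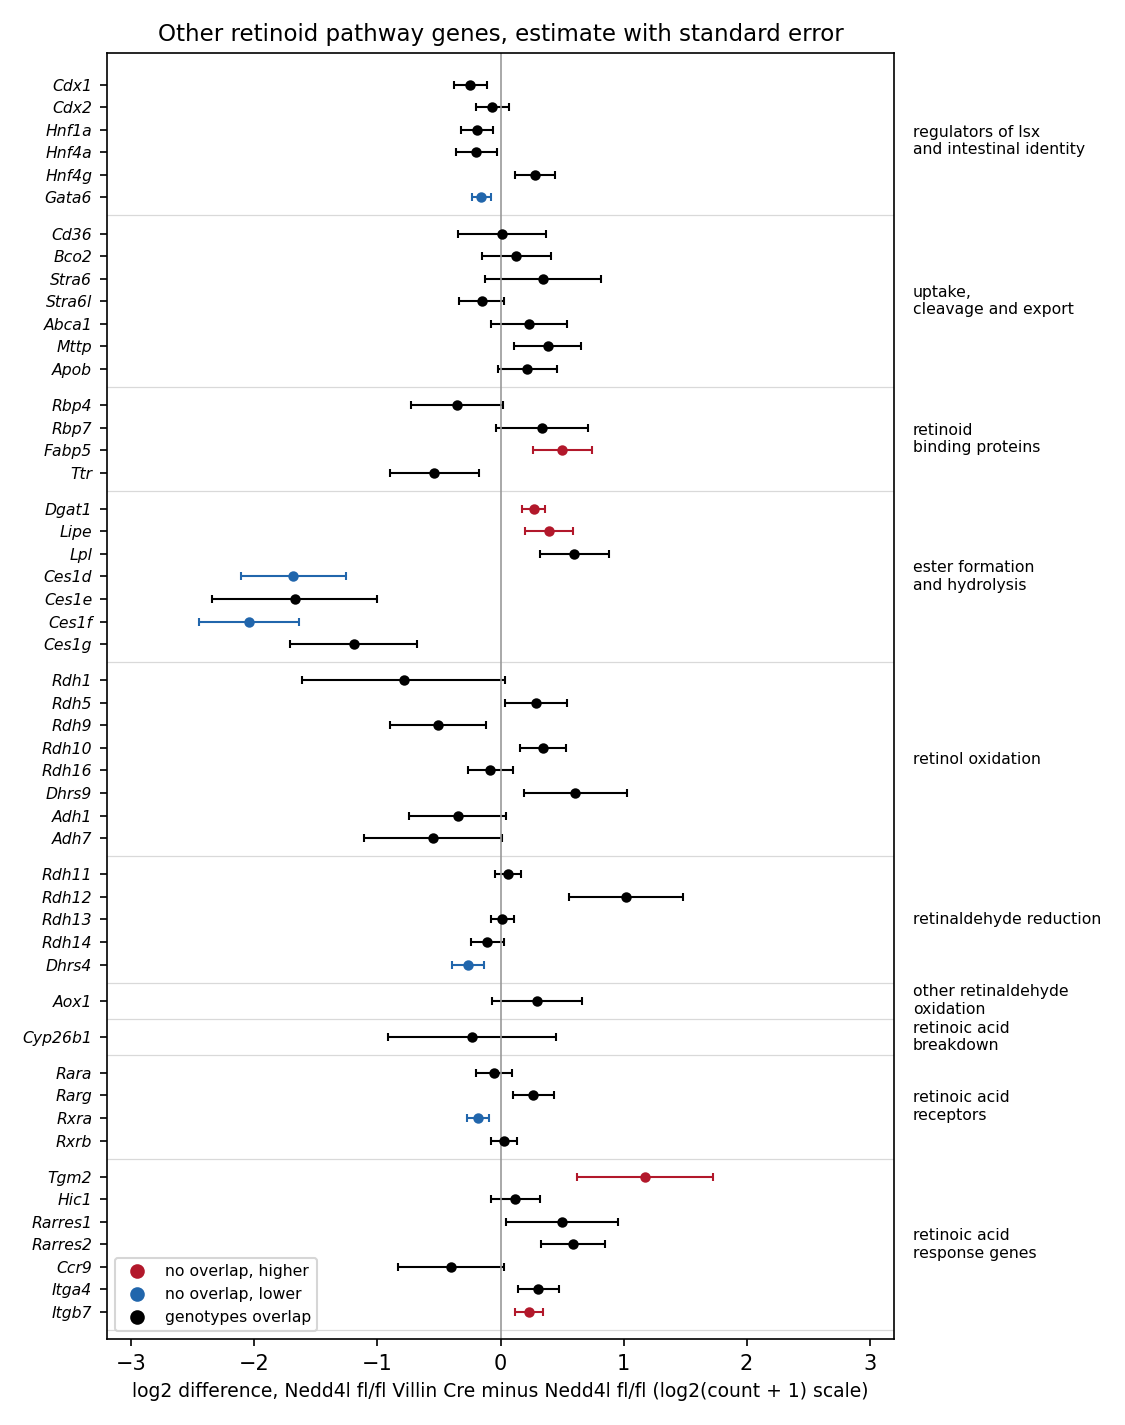
Log2 difference (cKO minus WT, log2(normalized count + 1) scale) with its standard error for the 50 tested genes of the wider list, grouped by role. Red points lie wholly above and blue points wholly below the WT libraries, black points overlap, and the carboxylesterase genes *Ces1d* and *Ces1f* reach the lowest values (−1.69 and −2.04).

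The genes whose log2 values ran most like *Isx* over the 6 libraries were taken from 11879 protein-coding genes with a mean of at least 50. By Pearson correlation they were *Osbpl8* (0.999), *Erg28* (0.997), *Psmb7* (0.995), *Col6a4* (0.990) and *9930111J21Rik1* (0.990), and those that ran most opposite were *Nacc1* (−0.995), *Sephs2* (−0.992), *Acad10* (−0.991), *Eri3* (−0.991) and *Wee1* (−0.989). The points fall into the 2 genotypes, so the values rank genes and are no test of a relation. Their log2 differences were smaller than that of *Isx*, from 0.11 for *Erg28* to 0.75 for *Col6a4* and from −0.16 for *Nacc1* to −0.80 for *Wee1*. *Col6a4*, a collagen gene, for example stood at 510, 354 and 383 in cKO and 236, 247 and 248 in WT replicates 1, 2 and 3.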

How the data were processed

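RNA sequencing of colonic tissue from 3 *Nedd4l fl/fl Villin Cre* (cKO) and 3 *Nedd4l fl/fl* (WT) mice, all given 2% DSS for 7 days, was analysed from 1 table with 6 library columns, and both genotypes were grouped by the labels. Values are a signal that the authors deposited as normalized counts, the reads per gene over the size factor of the library. The submitters' processing notes name HISAT2 2.0.5, featureCounts 1.5.0-p3 and hg18, a human build, while 97.3% of the identifiers found in GENCODE M21 have the coordinates given there on GRCm38; coordinates are as in the table. The tool that normalized the counts is not given in the sources used here, nor is the use of strand or the treatment of shared reads. The same table holds the authors' genotype means, fold changes, p-values and adjusted p-values, which were not used.

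Values were taken as log2(value + 1), which understates differences of low genes, and genes with a mean of at least 10 were kept. limma 3.58.1 (R 4.3.3; lmFit, then eBayes with trend and robust) was fitted on all of them and tested on simulated data; p-values were adjusted by Benjamini-Hochberg over all genes tested, with the threshold at 0.05. Depth was 14914367 to 17547270 per library in units of its smallest value. A count model was not fitted, so DESeq2 and edgeR were not used. The genes described and the lists were chosen with earlier results of these data known. Of each wider list, the genes called and the 2 with the smallest p are named, with the 5 genes most like and the 5 most opposite to *Isx*. Other genes are markers or were named after their values were seen. Some genes are not reported here. Scaling by marker sums was added after seeing the data. The main fit did not pair the mice by replicate number. Deviations of libraries with the same number correlated at −0.029, −0.090 and −0.056. With 3 mice of each genotype these values cannot settle whether the mice were paired. Promoter windows came from RefSeq on GRCm38.p6, and figures were drawn with matplotlib 3.10.9 (Python 3.11.15).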

Additional observations from a re-analysis of the deposited data

How the results depend on the processing

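13 alternatives were tried. limma called 0 genes higher and 0 lower in cKO mice, and called 7 higher and 23 lower with no filter on low values, 262 and 369 with libraries weighted by their fit to the model (array weights), and from 0 to 70 higher and 0 to 52 lower when 1 library was left out. Leaving out cKO replicate 2 gave 70 and 52, and leaving out cKO replicate 1 gave 2 and 22. The array weights were 0.414, 0.562 and 4.39 for cKO and 0.921, 0.792 and 1.34 for WT replicates 1, 2 and 3. The cKO side of the weighted fit thus rested mostly on replicate 3, and its calls are not those of 3 equal mice. Of the 10 genes described, *Isx* was called with no filter (1 higher) and without cKO replicate 1 or 2 (0 to 1 higher over the libraries left out), and array weights called 2 higher (*Isx* and *Aldh1a3*) and 2 lower (*Rbp2* and *Aldh1a1*). The 10 genes were chosen on this contrast, so their calls in these refits are no result about them. Of the wider list, array weights called 3 lower (*Ces1d*, *Ces1f* and *Ces1g*), and leaving out 1 library 0 to 3. *Nedd4l* was called with array weights (log2 difference −1.09) and ranged from −1.28 to −0.79 when 1 library was left out. The cause was not tested. With the replicate block the number called was 0 in each direction. *Isx* stood at 1.48, a value that this balanced term cannot change. Of the cKO libraries, 0 of 3 correlated best with their own number. The planned count tests with edgeR and DESeq2 were not run. Differences of *Lrat* and *Aldh1a2*, at 4 to 34 smallest values per library, are limited by depth.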

Other observations

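The genes after *Isx* on chromosome 8 of GRCm38 were read for comparison. *Hmgxb4*, 99.85 kb after it, stood at 499, 447 and 454 in cKO and 441, 571 and 469 in WT replicates 1, 2 and 3, with a log2 difference of −0.07 (adjusted p = 0.803 from limma). *Tom1*, 140 kb after *Isx*, stood at −0.33 (adjusted p = 0.386 from limma).

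Other cell types of the tissue were read through the same kind of lists. Of 6 tested macrophage markers 6 had a log2 difference above 0, *Mrc1* among them at 0.03 although its mean count was lower in cKO mice, with sums of 3199, 4825 and 3713 in cKO and 4666, 2201 and 3248 in WT replicates 1, 2 and 3. All 5 smooth muscle markers were lower on average, with sums of 5010, 6868 and 9557 against 7922, 17744 and 4400. Both sums overlapped between the genotypes, and limma called 0 genes of either list. *Msln*, a mesothelial gene, stood at 114, 16.6 and 26.8 against 5.93, 14.4 and 12.0. Its high library was cKO replicate 1, the one with the most *Isx*, *Aldh1a3* and *Tgm2*. The mesothelial list summed to 155, 40.9 and 50.5 against 33.6, 45.0 and 22.0, and *Msln* made up most of the 155. *Upk1b* stood at 41.2, 22.1 and 22.7 against 26.7, 30.6 and 9.99, with overlap. *Lrrn4*, below the filter, stood at 0, 2.21 and 1.03 against 0.988, 0 and 0.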
